A study of Mus musculus with 2 samples.

Results

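Lysosomal genes, meaning those of the hydrolases inside the lysosome, its cathepsins and the proteins of its membrane, were compared between 1 array of an allograft sample and 1 array of an autograft sample of mouse femur. A list of 47 genes defined the module, and every probe set whose only gene symbol in the platform annotation is one of them was taken. That gave 81 of the 20380 probe sets with 1 gene symbol, standing for 44 of 12393 named genes. Ctso, Arsb and Cd63 have no such probe set and are not analysed here. Each gene is represented by its brightest probe set, and all 81 probe sets are accounted for below.

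Both samples are total RNA labelled as murine bone from the femur of c57Bl/6 mice. The allograft, tissue moved between animals of one species, and the autograft, tissue moved within one animal, are the only stated difference between them. The labels name 1 strain for both, and whether it is the donor or the host of the allograft, the time after grafting, the age of the animals and the number pooled are not stated in the labels. Because each group is a single array (n = 1), no value below carries an error, no difference was tested, and precision is limited by that number of arrays.

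Lysosomes are acid compartments in which proteins, glycans, sulfated sugars and lipids are cut down to units that the cell uses again. Their soluble enzymes are made in the secretory pathway, most are tagged with mannose 6-phosphate and carried to the lysosome by receptors, and membrane proteins shield the compartment and let its products out. In bone, macrophages hold many lysosomes, and osteoclasts release lysosomal contents such as cathepsin K onto the bone surface. The basic helix-loop-helix factors TFEB, TFE3 and MITF are known to bind the letters CACGTG in promoters of lysosomal genes.

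Promoter sequence shows how common those letters are near the start sites of the module. RefSeq windows of build GRCm38.p6, from 250 bases before to 50 bases after a start site, were listed for 43 of the 47 genes, and for Asah1, Ctsb, Ctsh and Npc1 none was listed. CACGTG, which reads the same on both strands, was in a window of 14 of the 43 genes (32.6%), against 2187 of all 27025 genes with a window (8.09%). The longer TCACGTGA, which contains it, was in 5 (11.6%), namely Cln3, Ctsa, Ctsd, Gla and Mcoln1, against 1.12% of all genes. The median GC content was 56.7% over the windows of the module and 52.7% over all windows, and the shares were not matched on it. The 250 bases before the start site are shown for 5 genes, with CACGTG in capitals, because they hold the most copies (Lamp1), the longer forms (Cln3, Mcoln1, Ctsd) or belong to the gene of the module furthest apart between the arrays (Ctsf). They lie at chr7:126583237-126583486 (Cln3, minus strand), chr8:3500269-3500518 (Mcoln1, plus), chr8:13158911-13159160 (Lamp1, plus), chr7:142387828-142388077 (Ctsd, minus) and chr19:4854915-4855164 (Ctsf, plus).
Cln3: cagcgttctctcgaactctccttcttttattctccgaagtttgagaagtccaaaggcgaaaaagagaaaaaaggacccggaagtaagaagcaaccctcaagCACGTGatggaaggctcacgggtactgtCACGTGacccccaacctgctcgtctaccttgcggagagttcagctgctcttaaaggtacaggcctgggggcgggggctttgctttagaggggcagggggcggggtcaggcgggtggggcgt
Mcoln1: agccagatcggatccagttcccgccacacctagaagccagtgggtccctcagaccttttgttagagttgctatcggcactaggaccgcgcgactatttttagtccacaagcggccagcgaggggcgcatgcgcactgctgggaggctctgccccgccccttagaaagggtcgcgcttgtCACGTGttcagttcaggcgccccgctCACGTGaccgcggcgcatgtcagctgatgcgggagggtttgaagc
Lamp1: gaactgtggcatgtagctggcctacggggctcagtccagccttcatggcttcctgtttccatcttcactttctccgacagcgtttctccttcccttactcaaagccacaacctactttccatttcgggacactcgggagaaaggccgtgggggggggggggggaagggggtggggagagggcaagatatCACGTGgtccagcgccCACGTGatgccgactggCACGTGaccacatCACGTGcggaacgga
Ctsd: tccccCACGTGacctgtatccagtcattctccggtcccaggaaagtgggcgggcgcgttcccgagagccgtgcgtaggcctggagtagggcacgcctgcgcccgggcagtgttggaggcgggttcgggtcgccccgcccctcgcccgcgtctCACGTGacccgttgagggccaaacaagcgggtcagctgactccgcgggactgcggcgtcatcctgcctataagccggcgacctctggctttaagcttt
Ctsf: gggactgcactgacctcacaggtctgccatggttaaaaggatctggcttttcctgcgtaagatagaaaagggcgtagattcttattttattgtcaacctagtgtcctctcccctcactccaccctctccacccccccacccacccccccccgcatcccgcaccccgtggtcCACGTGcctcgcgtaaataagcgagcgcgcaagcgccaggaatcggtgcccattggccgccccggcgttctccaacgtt

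The Lamp1 window held 4 copies of CACGTG within 61 bases of the start site. Cln3, Mcoln1 and Ctsd held 2 each, and Ctsf 1, which began 79 bases before the start site. These matches describe letters in the reference genome and no binding was measured. Among genes above the floor, which is explained next, the 14 with CACGTG had log2 ratios from -1.09 to 0.20 with a median of -0.18, and 11 of them were below 0. The 24 genes with a listed window but without these letters had a median of -0.21, with 16 below 0, and ran from -0.55 to 0.66. The medians of both sets were thus close. The genes with the letters reached lower, through the bound of Ctsf and the ratio of Cln3 (-0.60), and did not reach as high. The highest gene without the letters was Lamp2, whose probe sets lay on both sides of 0.

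Each ratio below is the log2 intensity of the allograft less that of the autograft, taken after deposited values under a floor of 175 (the median non-control intensity) had been raised to it. A gene under the floor on 1 array has only a bound for its ratio. On this scale 39 of the 44 genes exceeded the floor in both samples, 3 (Ctsf, Gla and Npc1) only in the autograft, none only in the allograft, and 2 (Ctns and Ids) in neither. None of the lysosomal genes was at least 2-fold higher in the allograft sample, where 0.842% of all 7836 named genes above the floor were. Only 1, Ctsf, was at least 2-fold lower, where 0.702% were. With 42 genes, counts this small do not set the module apart from all genes. A total of 29 of the 42 genes had a ratio below 0 (69.0%), and so had 59.5% of all genes. The median log2 ratio was -0.20 in the module and -0.08 over all genes, with quartiles of -0.39 and 0.13 in the module and of -0.29 and 0.15 over all genes. At 1.5-fold, Lamp2 was the only higher gene (3.97% of all genes were) and Ctsf and Cln3 were lower (6.46% were). Ctsf was the only member outside the range from -0.78 to 0.70 that holds the central 95% of all genes (and so leaves out 5% of them).

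**Figure D1:**
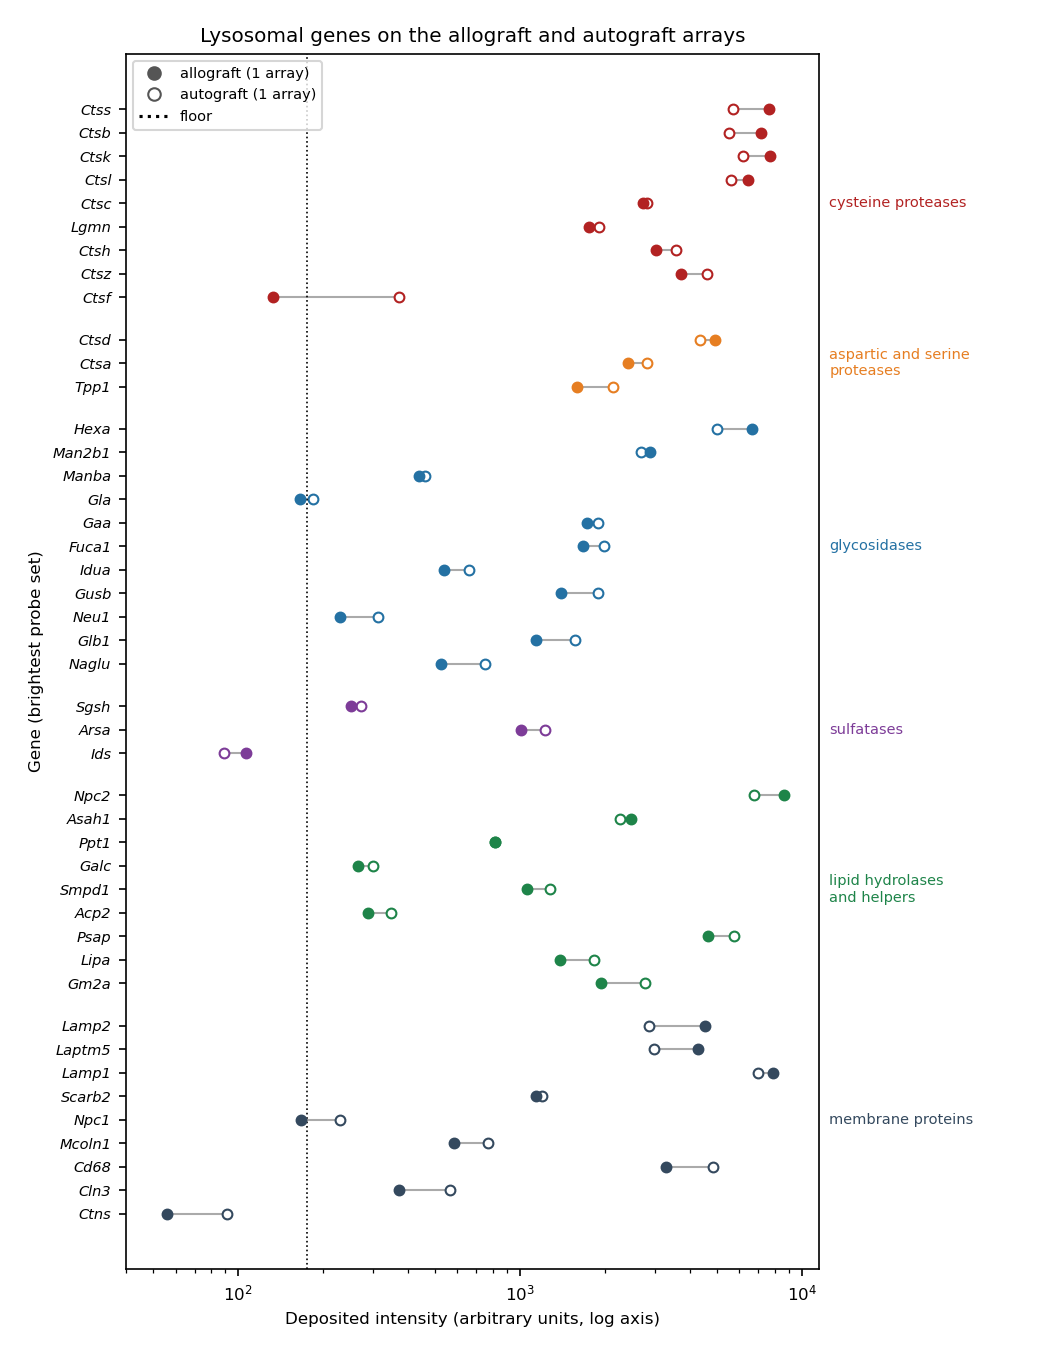
Deposited intensity (arbitrary units, log axis) of the brightest probe set of each lysosomal gene on the allograft array (filled) and the autograft array (open), grouped by role and sorted by ratio; the dotted line is the floor of 175. Ctsf, at 133 against 373, has the widest gap, and in most rows the points lie close together with the open one to the right.

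Cysteine proteases, most of them of the papain family, do much of the protein breakdown in lysosomes. Of the 10 listed, 9 had a probe set and exceeded the floor in 1 sample or both, with 4 ratios above 0 and a median of -0.06. The 4 above 0 all read above 4000 on both arrays. Ctss, the cathepsin S of antigen-presenting cells, read 7675 in the allograft and 5690.4 in the autograft sample (log2 ratio 0.43). Ctsb, cathepsin B, read 7167 against 5521 (0.38), and its 3 further probe sets stood at 0.15, -0.11 and -0.17. Ctsk, the collagen-degrading cathepsin of osteoclasts, read 7694 against 6198 (0.31). Ctsl, cathepsin L, stood at 0.20 (6454 against 5604). These differences were under 1.5-fold, and Ctsl stood on the other side of 0 after quantile normalization, at -0.07.

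Ctsf, cathepsin F, was the one cysteine protease far apart. It read 133 in the allograft sample, below the floor, and 373 in the autograft sample, which makes it at least 2.13-fold lower in the allograft by its only probe set. Ctsz, a carboxypeptidase also called cathepsin X, stood at -0.31 (3720 against 4607) by its brightest probe set, whose name ends in the sign for probes shared between transcripts. Its other probe sets stood at 0.21 (4368 against 3782) and -0.13 (2490 against 2727), so its direction was not settled. Ctsh, an aminopeptidase, read 3043 against 3570.3 (-0.23). Lgmn, the asparaginyl endopeptidase that activates other cathepsins, stood at -0.11 (1763 against 1909), and Ctsc, which activates granule serine proteases, at -0.06 (2725 against 2831). These last 3 were within 1.2-fold.

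The aspartic and serine proteases were few. Ctsd, the main aspartic protease of lysosomes, read 4917 against 4360.1 (0.17). Ctsa, a serine carboxypeptidase that also protects the enzymes encoded by Glb1 and Neu1, read 2407 against 2824 (-0.23). Tpp1, a tripeptidyl peptidase, read 1590.0 against 2139 (-0.43), and its second probe set gave 756 against 1024 (-0.44). The agreement between the probe sets of Tpp1 was the closest among the genes with more than 1 above the floor.

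Glycosidases remove sugars from glycoproteins, glycolipids and glycosaminoglycans. All 11 exceeded the floor in 1 sample or both, 9 had ratios below 0, and the median was -0.25. Naglu, which acts on heparan sulfate, was lowest at -0.52 (525 against 754). Glb1, the acid beta-galactosidase, followed at -0.45 (1141 against 1563), and Neu1, the lysosomal sialidase, at -0.45 (229.9 against 314). Gusb, the beta-glucuronidase, read 1400 against 1898 (-0.44). Second probe sets of Gusb and Neu1 were under the floor in the allograft sample, at bounds of -0.07 and -0.06. Idua, which cuts iduronic acid from glycosaminoglycans, stood at -0.30 (536 against 658), Fuca1, the fucosidase, at -0.25 (1668 against 1988), and Gaa, the glycogen-degrading acid alpha-glucosidase, at -0.13 (1734 against 1895).

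Smaller differences or the opposite direction were seen for the rest of the glycosidases. Manba, the beta-mannosidase, read 437 against 459 (-0.07). Gla, the alpha-galactosidase, was near the floor at 166 against 184 (a bound of -0.07). Man2b1, the alpha-mannosidase, stood at 0.11 (2889 against 2679). Hexa, the alpha subunit of beta-hexosaminidase, was the highest of the group at 0.42 (6679 against 4995) and the only glycosidase with an intensity above 4000 on either array.

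Sulfatases remove sulfate from lipids and glycosaminoglycans. Arsa, which acts on sulfatide, read 1005 against 1227 (-0.29), and Sgsh, which acts on heparan sulfate, read 252 against 272 (-0.11). All 5 probe sets of Ids, the iduronate sulfatase, were below the floor on both arrays, from 11.3 to 106 in the allograft and from 19.9 to 89.3 in the autograft sample, so no ratio is given.

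Lipid hydrolases and the proteins that present lipids to them had a median of -0.27 over 9 genes, with 6 below 0. Gm2a, the activator protein for GM2 ganglioside, was lowest at -0.52 (1940.3 against 2775). Lipa, the acid lipase that frees cholesterol from its esters, was lower in the allograft sample by each of its 3 probe sets. Its brightest, whose name has the sign for shared probes, read 1389 against 1825 (-0.39). The 2 not so marked read 343 against 721 (-1.07) and 164 against 341, the latter below the floor in the allograft (a bound of -0.96). Lipa was therefore called at 2-fold by 1 of its probe sets and not by its brightest. Among the 65 module probe sets that exceeded the floor anywhere, that probe set and the one of Ctsf were the 2 called lower, against 0.718% of all probe sets, and none was called higher, against 0.99%.

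Psap, the precursor of the saposins, stood at -0.30 (4634 against 5723) and by its second probe set at -0.19 (1223 against 1391). Acp2, the lysosomal acid phosphatase, stood at -0.28 (288 against 349.7), with further probe sets at -0.56 and 0.18. Smpd1, the acid sphingomyelinase, read 1058 against 1278 (-0.27), and Galc, the galactosylceramidase, 267 against 301 (-0.17). These 4 genes lay below 0 by their brightest probe set, and Acp2 alone had a probe set on the other side. Ppt1, a thioesterase that removes fatty acids from proteins, was nearly equal at 818 against 813 (0.01). Asah1, the acid ceramidase, stood at 0.14 (2477 against 2255). Npc2, the soluble protein that hands cholesterol to the membrane protein of Npc1, stood at 0.36 (8664 against 6744), but its other bright probe set stood at 0.04 (7560 against 7349.6).

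Membrane proteins had the widest spread of the role groups apart from that given by Ctsf. Of 9 genes with a probe set, 8 exceeded the floor in 1 sample or both, 5 of them below 0, and the median was -0.23. Cln3, a protein lost in a childhood storage disease of neurons, was lowest at -0.60 (372 against 564), so that its allograft intensity was 66.0% of the autograft one. Cd68, a heavily glycosylated protein of macrophages and osteoclasts, read 3294 against 4827 (-0.55). Mcoln1, a calcium channel of the lysosome, stood at -0.41 (582 against 773) and at -0.32 by its second probe set. Npc1, which moves cholesterol out of the lysosome, was below the floor in the allograft sample (168 against 229.8, a bound of -0.39). Scarb2, the receptor that carries glucocerebrosidase to lysosomes, was nearly equal at 1142 against 1195 (-0.07). Ctns, the cystine transporter, was below the floor on both arrays (56.1 against 91.6).

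Lamp1, an abundant glycoprotein that lines the membrane, stood at 0.18 (7891 against 6961). Lamp2, its relative, whose transcript is spliced into forms with different tails, was the highest gene of the module at 0.66 (4525 against 2864). Its 3 further probe sets stood at 0.09 (1759 against 1655), -0.24 (3136.5 against 3695.5) and -0.29 (429 against 525), so the higher value belongs to 1 of 4 probe sets. That probe set has the sign for shared probes in its name. Laptm5, a membrane protein of blood cells, stood at 0.52 (4283 against 2985) by its brightest probe set and at -0.76 (1710.5 against 2904.5) and a bound of -0.65 (130.4 against 275) by the others, all of them so marked. No single direction can be given for Lamp2 or Laptm5.

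**Figure D2:**
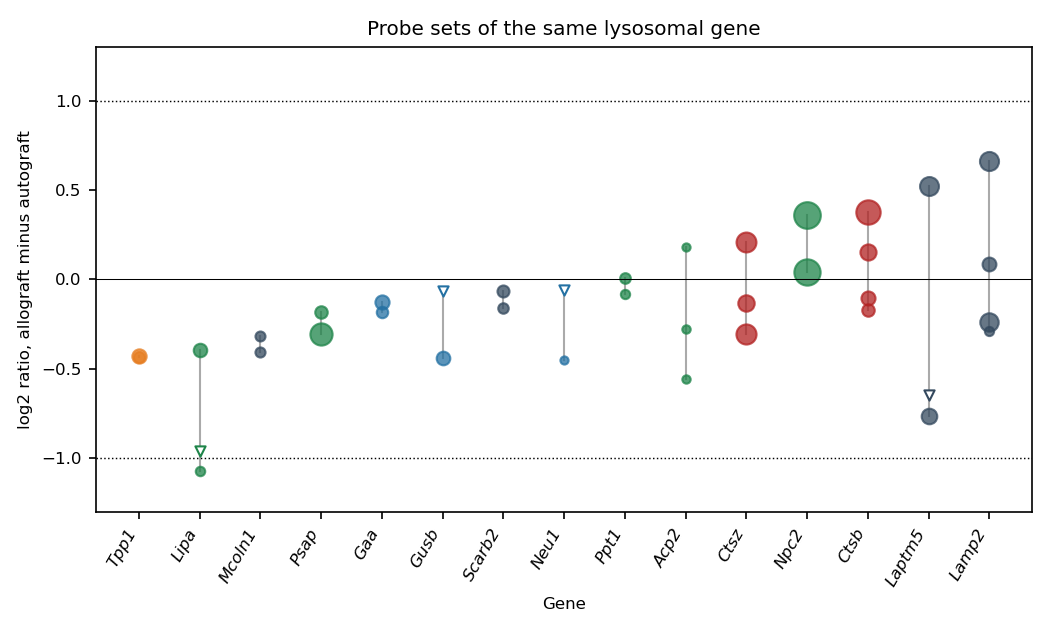
Log2 ratio of each probe set above the floor for the 15 lysosomal genes with more than 1; circle area grows with intensity, open triangles are bounds below the floor in the allograft, colours are the role groups, and dotted lines mark 2-fold. The points of Tpp1 coincide near -0.43, those of Lipa all lie below 0, and those of Laptm5 and Lamp2 lie on both sides of 0.

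Agreement between probe sets of one gene was the check within these arrays. Of the 81 probe sets, 58 exceeded the floor in both samples, 7 only in the autograft and 16 in neither. Of the 44 genes, 23 had more than 1 probe set, and 15 had more than 1 that exceeded the floor. In 8 of the 15 (Gaa, Gusb, Lipa, Mcoln1, Neu1, Psap, Scarb2 and Tpp1) all such probe sets were below 0, in 1 (Npc2) all were above 0, and in 6 (Acp2, Ctsb, Ctsz, Lamp2, Laptm5 and Ppt1) they were split. The median distance between the highest and lowest probe set of a gene was 0.37. Over the 1925 named genes whose 2 brightest probe sets exceeded the floor in both samples, the difference between their ratios had an SD of 0.43. For 1 probe set that corresponds to an SD of 0.31, and the ratios of 22 of the 42 module genes (52.4%) were smaller in size than this, against 62.6% of all genes.

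The side of 0 on which a lysosomal gene fell went with its intensity, as it did for all genes. The 13 genes above 0 had a median intensity, averaged over both arrays, of 5837, and the 29 below 0 one of 1168. Of the 11 module genes at 4000 or more, 8 were above 0 with a median ratio of 0.20, and of all 467 genes there 75.2% were above 0 with a median of 0.22. From 2000 to 4000 the module median was 0.03 (8 genes) against 0.00 over all genes. From 1000 to 2000 all 10 module genes were below 0, with a median of -0.28, where the median of all genes was -0.06 and 42.2% of them were above 0. From 500 to 1000, 3 of 4 were below 0, with a median of -0.35 against -0.09. Below 500 all 9 were below 0, with a median of -0.28 against -0.12. Among these 9, Ctsf, Gla and Npc1 exceeded the floor only in the autograft, which by itself fixes their sign. The remaining 6 had a median of -0.23, against -0.12 for the 2800 named genes of this range that exceeded the floor in both samples, of which 64.2% were below 0.

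After the trend of the ratio with intensity was subtracted by a lowess fit, 30 of 42 module genes lay below 0 (71.4%, against 53.2% of all genes), and the median was -0.14 against -0.02. Ctsf then stood at -0.99, short of 2-fold. Of the bright cathepsins, Ctss was then at 0.18 and Ctsk at 0.05, and Ctsl was at -0.03. The role groups kept medians below 0 on this scale, from -0.27 for the aspartic and serine proteases to -0.09 for the cysteine proteases.

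**Figure D3:**
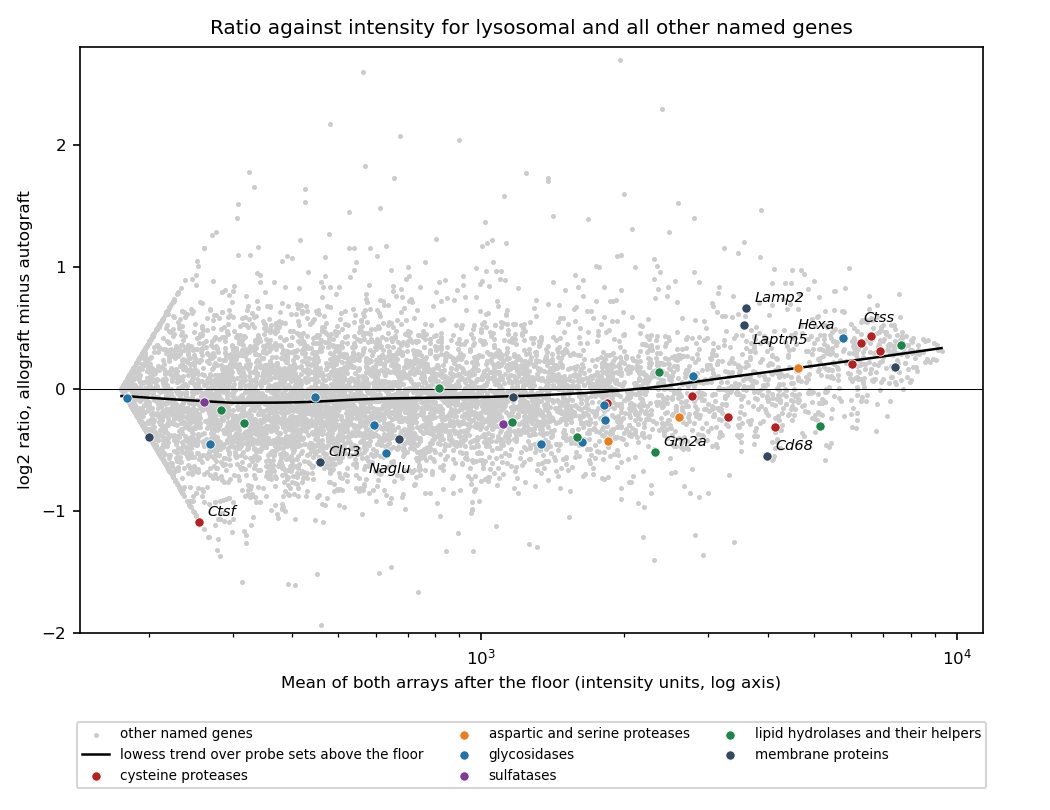
Log2 ratio (allograft minus autograft) against the mean of both arrays after the floor (intensity units, log axis) for all named genes above the floor (grey) and the 42 lysosomal genes (coloured by role); the line is the lowess trend over probe sets that exceeded the floor in both samples. The trend bends up at high intensity, and 30 of the 42 lysosomal genes lie below it.

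Other genes linked to the lysosome, which are not members and whose proteins are not all found in it, were compared in 4 lists. None of their genes was 2-fold apart in either direction. Further lysosomal enzymes had 18 genes above the floor, 13 of them below 0 and a median of -0.03. The extremes were Ctse, the aspartic protease cathepsin E (0.98, 5804 against 2945), and Prcp, a serine carboxypeptidase (-0.97, 274 against 537). Further membrane proteins had a median of -0.11 over 22 genes, 14 of them below 0, from Tmem63a, an ion channel (0.59, 392 against 259.9), to Cln6, a membrane protein of the endoplasmic reticulum that is needed for lysosomal enzymes (-0.78, 375 against 644). Genes of enzyme delivery and lysosome biogenesis had a median of -0.20 over 23 genes, 18 of them below 0, from Hps3, a factor for lysosome-related organelles (0.51, 342 against 241), to Vps11, a tethering subunit (-0.71, 260.1 against 425).

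The receptors that carry mannose 6-phosphate enzymes belonged to that last list. M6pr read 2451 against 3292 (-0.43) and Igf2r 917 against 1145 (-0.32), and Gnptab, a subunit of the enzyme that makes the tag, read 494 against 639.7 (-0.37). Of the factors that bind CACGTG, Tfeb read 379 against 295 (0.36) and Mitf 557 against 585 (-0.07). Of the 10 cathepsin inhibitors listed, 4 were above the floor. All 4 had ratios above 0, with a median of 0.30, from Cst7, cystatin F (0.22, 213 against 183), to Cst3, cystatin C (0.55, 7714 against 5256). Cst3 and Cstb, which read 7995 against 6553 (0.29), lay in the intensity range where most genes were above 0, and Cst6 (246 against 198) and Cst7 did not. M6pr, Igf2r, Gnptab, Mitf, Tfeb, Cst6 and Cstb were chosen for mention after their values were seen.

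**Figure D4:**
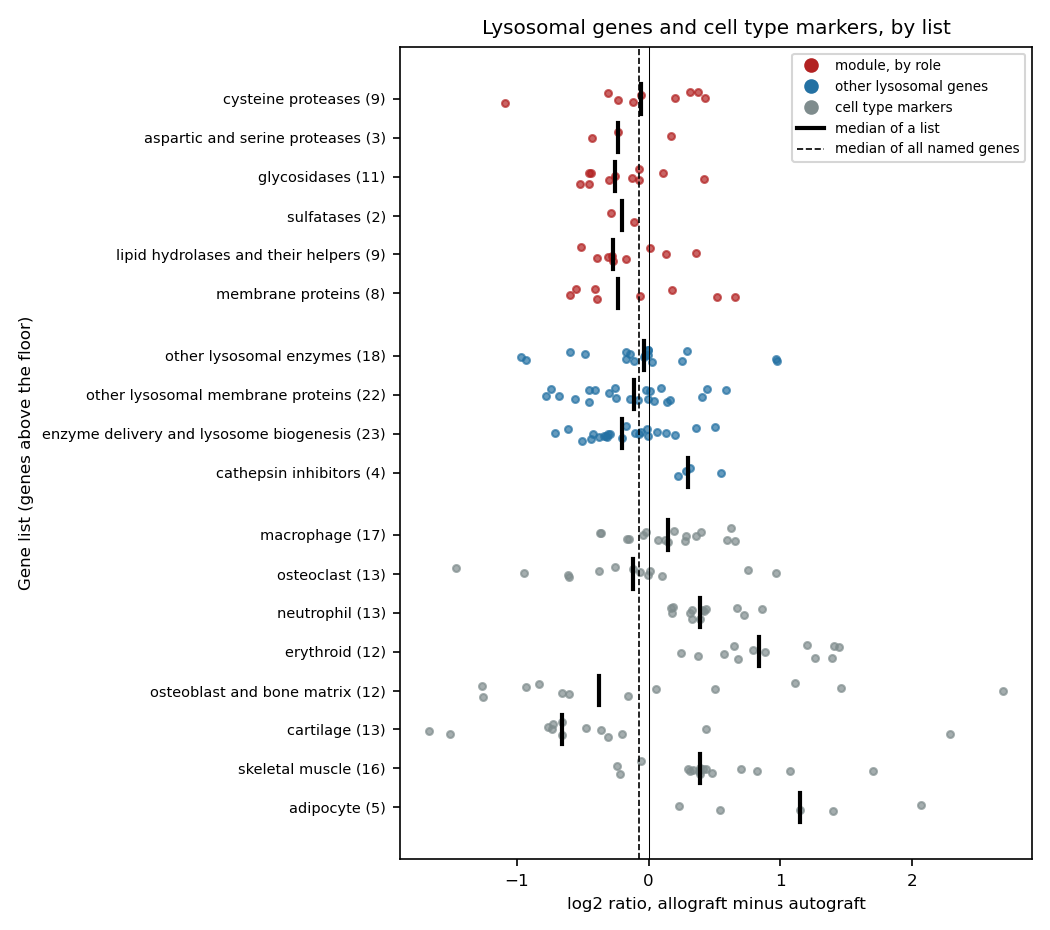
Log2 ratio (allograft minus autograft) of each gene above the floor in the 6 role groups of the module (red), 4 lists of other lysosomal genes (blue) and 8 cell type marker lists (grey); heavy bars are list medians, the number of genes is in brackets, and the dashed line is the median of all named genes, -0.08. Every role group has a median below 0, and the cathepsin inhibitors lie above 0. All marker lists except the macrophage and osteoclast ones have medians further from 0 than any lysosomal list, the furthest being erythroid, adipocyte and cartilage.

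Both samples hold many cell types, and in such a mixture fewer cells of a type cannot be told apart from less RNA per cell. The brightest probe sets of the module summed to 111906 for the allograft and 107154.5 for the autograft (a log2 ratio of 0.06). That lies on the other side of 0 from the median of its genes. The same held over all named genes, with sums of 9111629 and 8919267 (0.03) and a median of -0.08. Of the macrophage markers, 11 of 17 above the floor were above 0 with a median of 0.15, and the intensities of the list summed to 36248 for the allograft and to 30084 for the autograft. Csf1r, the receptor of the macrophage growth factor, stood at 0.65 (8219 against 5221), and Adgre1, the F4/80 antigen, at -0.37 (1313 against 1698). Itgam, Marco, Siglec1 and Vsig4 were below the floor on both arrays. Cd68 and Adgre1 were thus lower in the allograft sample while Csf1r was higher.

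Osteoclast markers had a median of -0.12, with 9 of 13 below 0 and sums of 30133 and 25646, from Acp5, the tartrate-resistant phosphatase (0.97, 6312 against 3219), to Ocstamp (-1.46, 388 against 1071), and Calcr and Itgb3 were below the floor. Acp5 is also in the list of further enzymes, and Clcn7 and Ostm1 are in that of further membrane proteins. All 13 neutrophil markers above the floor were above 0, with a median of 0.39 and sums of 54456 and 41388, and Cxcr2 was below the floor.

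Erythroid markers were all 12 above 0 (median 0.84, sums 25259 and 13759, Hba-a1 below the floor), skeletal muscle markers 13 of 16 (0.39, 90819 and 69279) and adipocyte markers all 5 (1.15, 26105 and 15940, with Cidec, Lep and Pparg below the floor). Cartilage markers were below 0 in 11 of 13 (-0.65, 29638 and 32008, with Col9a2, Epyc, Matn1 and Sox9 below the floor) and bone matrix markers in 7 of 12 (-0.38, 40183 and 33426). Of the bone matrix markers 3 were at least 2-fold higher, Col1a1 (2.70), Sparc (1.46) and Col1a2 (1.11), and 2 were at least 2-fold lower, Omd (-1.27) and Alpl (-1.25). All 12 bone matrix markers with a probe set were above the floor, and so were all 16 muscle markers. Control probe sets at the 3' end of the beta-actin transcript read 1.77 times those at its 5' end in the allograft sample. In the autograft sample they read 1.19 times those. Such 3' to 5' ratios are used as a sign of RNA quality. For Gapdh they were 0.194 and 0.0349, with the 3' end reading lower than the 5' end, the reverse of beta-actin. The Gapdh ratios are therefore not read as RNA quality here. The part of cell makeup and of RNA quality in the lysosomal ratios was not tested.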

How the data were processed

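Total RNA from 1 allograft and 1 autograft sample was measured on 1 array each. The deposited intensities, 1 per probe set, were used as the authors deposited them. How they were computed from the scans is not stated in the labels. The 2% trimmed means were 500.2 and 500.1, so the values had been scaled to a common level. Control probe sets (64) were left out. The platform annotation gave 20380 of the remaining 22626 a single gene, 691 several genes and 1555 none. A gene took the probe set with the highest mean log2 value after the floor. A difference of 2-fold was called, and no test was possible with 1 array a group. The members and lists were chosen with earlier results of these data known. Named were all members, with intensities for those 2-fold apart, those above the floor on 1 array and the 3 highest and 3 lowest of each role group, and the highest and lowest gene of each other lysosomal list. Alternatives covered scaling, normalization, intensity trend (lowess, span 0.4), floor, a pseudocount of 16, the choice of probe set and thresholds. The counting step was tested on simulated data. Computations ran in Python 3.11.15 with pandas 2.3.3, numpy 2.4.6, statsmodels 0.14.6 and scipy 1.17.1, and figures in matplotlib 3.10.9.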

Additional observations from a re-analysis of the deposited data

How the results depend on the processing

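With 1 array a group, no setting adds a replicate. No paired analysis was possible because each graft type has 1 array. The module median stayed below 0 and below that of all genes in all 12 alternatives. It ran from -0.29 without the brightest 10% of probe sets to -0.12 at a 75th percentile floor. The first of these settings held 25 genes, 24 of them below 0, and the second 34, so the gene sets differ. In the reported setting the mean over the 42 genes was -0.13. The count of genes at least 2-fold apart, 1 as reported, was 0 with the lowess trend subtracted, at a 75th percentile floor and over genes that exceeded the floor in both samples; the last 2 settings leave Ctsf out by construction. It was 2, Ctsf and Lipa, with probe sets not marked as shared and without the brightest 10%, 3 at 1.5-fold and 0 at 4-fold. The count of probe sets, 2 as reported, was 1 after quantile normalization and 0 with the lowess trend subtracted, and the cause of these 2 changes was not tested. It was 0 at a 75th percentile floor of 561.5, which exceeds both readings of Ctsf (133 and 373) and the lower Lipa reading (343). It was 4 at a 25th percentile floor of 50.6, where the values of Lipa (164 against 341) and Laptm5 (130.4 against 275) were no longer bounds. Of 42 genes, 30 did not change side of 0 in any alternative that gave them a value, 24 below and 6 above (Asah1, Ctsk, Ctss, Hexa, Man2b1 and Npc2). These 6 had no value without the brightest 10% of probe sets, and Ctsk fell as low as 0.01 and Npc2 as low as 0.04. Among the 24, Gla reached 0 after quantile normalization, and Scarb2 reached -0.001 when scaled to the 75th percentile. A total of 12 genes changed side in at least 1 alternative, among them Lamp2 (-0.29 to 0.72), Laptm5 (-0.65 to 0.59) and Lamp1 (-0.14 to 0.25). Of 475 gene values under alternatives, 25 moved by over 0.31, the SD of 1 probe set's ratio. Part of these values could not move. A gene with 1 probe set above the floor keeps its ratio, or drops out, under the choices of probe set.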

Other observations

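Grouped by what they break down, with lists drawn up after the values were seen, the lysosomal genes showed these values beside the 59.5% of all genes below 0. Of the genes listed for the stepwise breakdown of heparan sulfate, 5 were above the floor, and all 5 were below 0 with a median of -0.30: Naglu (-0.52), Gusb (-0.44), Idua (-0.30), Hgsnat, which acetylates the chain end (-0.11), and Sgsh (-0.11). Ids was below the floor on both arrays. In sphingolipid breakdown 8 of 10 genes above the floor were below 0, with a median of -0.28, and Hexa (0.42) and Asah1 (0.14) were the exceptions. Genes of the neuronal ceroid lipofuscinoses, a family of storage diseases, were split. Ctsf (a bound of -1.09), Cln6 (-0.78), Cln3 (-0.60) and Tpp1 (-0.43) were below 0, while Ppt1 (0.01), Cln8 (0.04) and Ctsd (0.17) were not. In the removal of glycans from glycoproteins, 4 of 6 were below 0 with a median of -0.16. The lists share genes, such as Glb1, Neu1 and Hexa, and none of these differences has a test.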
